A study of Mus musculus with 8 samples.

Results

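Trimethylation of histone H3 at lysine 27 (H3K27me3) was examined in stretches of the mouse X chromosome that hold no gene but carried the mark in control neural stem cells. The X was divided into fixed windows of 100 kb from its first base (mm10), and a window entered where peaks filled at least 1% of it in either control library and no annotated protein-coding or lncRNA gene touched it. This gave 382 of 1709 X windows, out of 26321 windows on chromosomes 1 to 19 and X. They were 56.1% of the 681 gene-free X windows, whereas 841 of 1028 X windows with genes (81.8%) passed the same threshold. Because the windows were chosen on control cover, the control values of these windows, and their differences from del/del, describe selected windows. The limma calls of these windows and the permutation p-values given below rest on windows chosen by control cover, and support nothing beyond that description. The limma fit itself took in all windows with a peak in any library. Both control libraries reached 1% in 346 of the 382 windows, and only one did in 36.

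The controls (del/fl) were untransduced neural stem cells, grown as lines from female E14.5 embryos, with 1 deleted and 1 conditional allele of Smchd1. The del/del cells were cells of such lines transduced with the retrovirus MSCV-Cre-puro, selected with puromycin from 24 hours after transduction and harvested on day 7. Both groups had a maternal X of 129 origin with a deltaA allele of Xist and a paternal Castaneus X, on a mixed C57BL/6, 129 and Castaneus background. Each group had 2 H3K27me3 libraries, each called against its own whole-cell extract. Only del/del cells met the virus and the drug, so deletion and transduction cannot be told apart, and lists that do not separate the parental alleles give cover for both X chromosomes together.

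H3K27me3 is laid down by Polycomb repressive complex 2 and marks silent chromatin. On the inactive X it spreads from sites reached by Xist RNA into broad domains that take in both genes and the DNA between them. An Xist allele without the A repeat fails to silence the chromosome that carries it, so the other X is normally the inactive one. Smchd1 is a chromatin protein of the SMC family that binds the inactive X and is needed for its compaction and for silencing of part of its genes.

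After duplicate removal the libraries retained 14064030 and 12819919 tags in del/del versus 13288499 and 11793402 in the controls. Their redundant rates were 0.41 and 0.42 against 0.34 and 0.36. The extracts retained 20770551 and 31629404 tags in del/del versus 19579060 and 15525700 in the controls. Whether these values bear on cover was not tested. The lists held 32971 and 39982 peaks in del/del versus 36934 and 45566 in the controls. In both genotypes replicate 2 had fewer tags and the larger cover, in 359 of the 382 windows in del/del versus 328 in the controls. The labels name neural stem cells. Of 16 neural stem cell marker genes, 13 (Nes, Sox2 and Vim among them) had no peak near either end in any library, as had all 4 blood and microglial and both pluripotency markers, and peaks do not measure expression.

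No genome sequence was used here, so the windows themselves are not printed. Among the annotated genes of other types inside them are 3 microRNA genes, whose mature sequences are shown in RefSeq's GRCm38.p6 version (the mm10 build) with the seed, bases 2 to 8, in capitals. Their mature forms carry 4 different seeds.
mmu-miR-509-5p (chrX:68010149-68010170, minus strand): uACUCCAGaauguggcaaucau
mmu-miR-509-3p (chrX:68010115-68010135, minus strand): uGAUUGACauuucuguaaugg
mmu-miR-6382 (chrX:106309909-106309932, plus strand): uGGAAUGUaaagagagcacacaag
mmu-miR-680 of Mir680-2 (chrX:144297790-144297810, plus strand): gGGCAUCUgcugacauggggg

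The microRNA genes differed in whether a peak lay over them. Mir6382 was fully under a peak in all 4 libraries, and its window was 81.1% and 82.3% covered in del/del versus 53.9% and 66.8% in the controls. Mir509 lay outside every peak in all 4 libraries, although its window was 63.3% and 78.0% covered in del/del versus 35.9% and 36.2% in the controls. Mir680-2 was under a peak in replicate 1 of del/del and replicate 2 of del/fl only, so the genotypes overlapped at the gene. Its window, at 56.1% and 62.2% in del/del versus 20.5% and 27.6% in the controls, did separate them.

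Promoters of 3 genes that flank long gene-free stretches are shown next, to set the cover of a flanking promoter beside that of its run; whether the values are related was not tested. The longest unbroken run of members lay between Diaph2, a formin gene of actin assembly, and Pcdh19, a protocadherin gene of neurons. Another long run ended near Pou3f4, a POU-domain transcription factor gene of brain and inner ear. The promoters lie 750210 bp (Diaph2), 188944 bp (Pcdh19) and 14129 bp (Pou3f4) from the nearest window of these runs. Each line gives 250 bases before and 50 after the annotated start, with every CG in capitals.
Diaph2 (chrX:129749492-129749791, plus strand): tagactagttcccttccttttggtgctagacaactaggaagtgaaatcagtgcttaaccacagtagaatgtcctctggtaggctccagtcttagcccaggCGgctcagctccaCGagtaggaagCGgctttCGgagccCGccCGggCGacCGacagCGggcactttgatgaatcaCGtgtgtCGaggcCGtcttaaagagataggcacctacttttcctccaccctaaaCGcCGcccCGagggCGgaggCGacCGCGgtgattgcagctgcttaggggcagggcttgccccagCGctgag
Pcdh19 (chrX:133688944-133689243, minus strand): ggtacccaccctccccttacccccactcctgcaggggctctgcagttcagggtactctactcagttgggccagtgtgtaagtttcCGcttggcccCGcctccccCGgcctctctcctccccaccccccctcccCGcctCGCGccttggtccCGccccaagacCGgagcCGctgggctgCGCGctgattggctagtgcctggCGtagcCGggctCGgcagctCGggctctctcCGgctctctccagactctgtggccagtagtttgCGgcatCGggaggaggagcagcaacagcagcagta
Pou3f4 (chrX:110814129-110814428, plus strand): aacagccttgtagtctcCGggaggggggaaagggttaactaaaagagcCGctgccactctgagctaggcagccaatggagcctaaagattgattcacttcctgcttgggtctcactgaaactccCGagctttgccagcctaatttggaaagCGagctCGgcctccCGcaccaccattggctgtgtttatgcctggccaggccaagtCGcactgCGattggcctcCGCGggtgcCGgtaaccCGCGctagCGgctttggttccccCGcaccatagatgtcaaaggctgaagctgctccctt

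The CG dinucleotide occurs 20 times in the Diaph2 promoter, 18 in that of Pcdh19 and 15 in that of Pou3f4. The median was 7 over 1223 X promoter entries of the same length. Other promoters flanking the longest runs held from 0 (Gm34521 among them) to 52 (a promoter of Cnksr2). The promoters shown therefore do not stand for all flanks. That of Gm5636 held 19 and lay under no peak in any library. The Pcdh19 and Pou3f4 promoters were fully under peaks in all 4 libraries. The Diaph2 promoter was 100% and 41.7% covered in del/del versus 0% and 30.3% in the controls. RefSeq promoters matched 16 of the 18 genes named as flanks of the 9 longest runs, with 19 promoter entries. Some entries overlap each other, such as those of Cnksr2, and those of Actrt1 and 4930515L19Rik. Of the 19 entries, 17 and 13 were fully under peaks in del/del versus 12 and 12 in the controls. The share over all X promoter entries was not computed. The gene-free run beside Pou3f4 was sparsely marked, with 23.7% and 35.3% mean cover in del/del versus 6.34% and 7.66% in the controls. The promoter of Gm34521, which flanks its other end, was 0% and 56.3% covered in del/del versus 0% and 94.7% in the controls. Cover of a single promoter and mean cover of a long run are unlike measures.

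Over the 382 windows, H3K27me3 peaks filled more of the DNA in both del/del libraries than in either del/fl library. Mean cover was 52.3% and 61.1% in del/del versus 28.4% and 33.4% in the controls. The genotype means were 56.7% ± 6.21 and 30.9% ± 3.59 (SD, n = 2), which differ by 25.8 percentage points or 1.83-fold. Between single libraries the ratio was 1.56 at the least and 2.15 at the most. In length, 19.98 and 23.3 Mb of the 38.2 Mb was covered in del/del versus 10.8 and 12.8 Mb in the controls.

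The difference was spread over nearly all members and was not carried by a few. The mean was higher in del/del in 381 windows and lower in 1, with a median difference of 26.1 points and a middle range, from the lower to the upper quartile, of 18.1 to 35.1 points. In 373 windows (97.6%) the lower del/del value was above the higher control value, and the reverse occurred in 0. Among all 13985 windows with a peak in any library, both del/del libraries were higher in 15.7% (86.7% of the 1476 on the X and 7.33% of the autosomal ones). They were both lower in 12.1% (0.203% on the X and 13.5% on the autosomes). When windows were chosen on 1 del/fl library and compared with the other, which the choice had not used, the difference was 24.7 points over 352 windows and 28.7 points over 376.

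Window by window, limma, fitted over all 13985 windows, called 334 members higher and 0 lower in del/del (Benjamini-Hochberg threshold 0.05). It called 7.04% of all windows tested higher (64.6% on the X and 0.248% on the autosomes) and 0.0858% lower (0.0959% on the autosomes and none on the X). Since del/fl cover chose the members, nothing is read from their share of 87.4%. The count rests on variances shared along a trend with the mean: limma called 0 members without the trend, where 321 had an unadjusted p under 0.05. It called 59 without del/del replicate 1, in a fit that called 20.8% of all windows higher, 2486 of them autosomal. It called 0 members without del/del replicate 2, del/fl replicate 1 or del/fl replicate 2, where 187, 84 and 208 had an unadjusted p under 0.05.

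**Figure D1:**
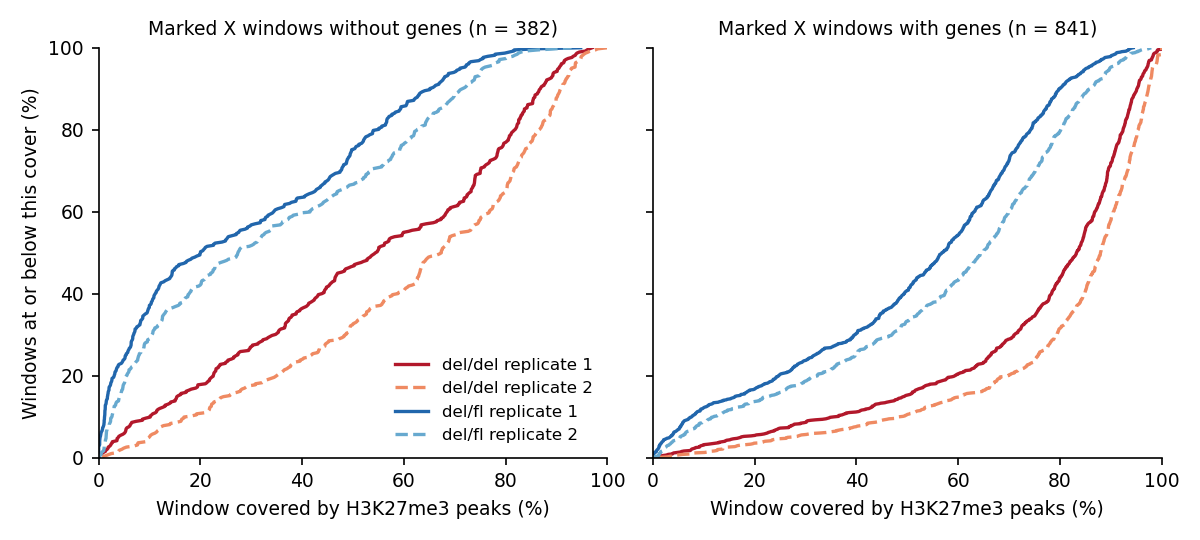
Cumulative share of windows (y axis, percent) against the part of each window under peaks (x axis, percent) for marked X windows without genes (left, n = 382) and with genes (right, n = 841), with 1 line per library. The median window without genes was 54.6% and 67.3% covered in del/del versus 20.01% and 27.4% in the controls, and the lines of the genotypes lie apart in both panels.

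The cumulative plot by library shows how the whole distribution lay higher. Windows more than 75% covered numbered 115 and 161 in del/del versus 12 and 23 in the controls. Windows more than 50% covered numbered 204 and 258 against 95 and 128. At the low end, 11 windows in del/fl replicate 1 and 1 in del/fl replicate 2 held no peak, against 2 and 0 in del/del. The order of the windows was shared: the Spearman correlation of mean cover between the genotypes was 0.96 across the 382 windows, which share libraries and neighbouring peaks.

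The 8 windows with the largest differences included neighbours from the same gene-free runs. The largest difference, 51.2 points, was at X 62300001 to 62400000, with 76.8% and 83.1% cover in del/del versus 26.3% and 31.1% in the controls, and the nearest gene, 4933402E13Rik, lay 7917 bp away. At X 63600001 to 63700000, 451405 bp from Gm6760, cover was 67.3% and 79.4% against 27.04% and 20.9%. At X 63200001 to 63300000, in the same run of gene-free windows, it was 45.5% and 62.7% against 6.24% and 12.5%. In each of these windows both del/del libraries stood far above both controls.

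At X 165500001 to 165600000, 172134 bp from the glycine receptor gene Glra2, cover was 68.1% and 80.3% in del/del versus 25.5% and 30.5% in the controls. At X 92600001 to 92700000, only 429 bp from Mageb18, a gene of the MAGE family, it was 73.2% and 82.5% against 32.8% and 32.6%. A pair of neighbours at X 46000001 and 46100001, near the lncRNA gene 4930515L19Rik, differed by 44.1 and 45.9 points from a sparse start. The second of them had 46.0% and 60.2% in del/del versus 7.17% and 7.12% in the controls. In the longest run, 582860 bp from Pcdh19, the window at X 132900001 to 133000000 had 38.8% and 65.5% against 8.23% and 7.74%.

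The genotypes overlapped in 9 windows. Of these, 7 were sparsely covered in del/fl, with means of 0.535% to 3.14%, and they included the 4 smallest differences. The only member with a lower mean in del/del, at X 91500001 to 91600000 near Gm8914, had 0.912% and 0.685% in del/del versus 1.13% and 0.517% in the controls. The others were not sparse. At X 75600001 to 75700000, 21770 bp from Rab39b and just before 4933407K13Rik, the Dxz4 locus at the boundary between the large domains of the inactive X (X 75725458 to 75764699), cover was 35.4% and 47.9% in del/del versus 42.7% and 33.8% in the controls. At X 71700001 to 71800000, near Vma21, an assembly factor of the vacuolar proton pump, it was 90.2% and 89.5% against 81.7% and 89.6%.

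**Figure D2:**
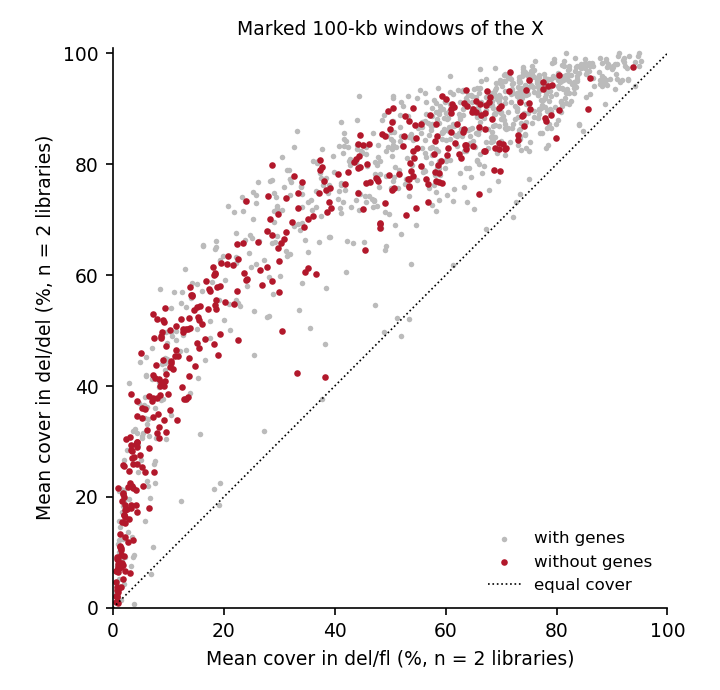
Mean cover in del/del (y axis, percent, 2 libraries) against mean cover in del/fl (x axis, percent, 2 libraries) for each marked X window, without genes in red and with genes in grey, with a dotted line of equal cover. Red and grey points follow the same arched course above the line, and 381 of the 382 red points have a higher mean in del/del.

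In windows already nearly filled in the controls, the authors' deposited peak scores were used alongside covered length. At X 99600001 to 99700000, near Gm41898, cover was 97.0% and 98.1% in del/del versus 94.7% and 92.9% in the controls. Counting only peaks with a −log10 q of at least 5, the same window was 95.6% and 40.8% covered in del/del and 0% in both del/fl libraries. At X 71700001 to 71800000, where the genotypes overlapped at the deposited threshold, strict peaks filled 86.6% and 89.3% in del/del versus 2.20% and 2.09% in the controls. At X 70900001 to 71000000 they filled 65.7% and 27.6% against 0%, beside a cover by all peaks of 96.0% and 95.1% against 85.8% and 86.4%. Fold enrichment over local background lay closer. At X 71700001 it was 4.76 and 4.82 in del/del versus 4.12 and 4.10 in the controls. At X 99600001 it was 4.87 and 4.77 against 4.12 and 4.21, and at X 70900001 4.57 and 4.50 against 3.82 and 3.78. A cutoff counts a long peak wholly or not at all. In these 3 of the 4 windows with the highest control cover the genotypes lay further apart in cover by the stronger peaks than in cover by all peaks. The other of the 4, X 86300001 to 86400000, had no such peak in any library and 94.5% and 97.6% cover by all peaks in del/del versus 77.9% and 83.0% in the controls. At X 50700001 to 50800000, close behind in control cover, strict peaks filled 0.316% and 0% in del/del versus 0% and 1.15% in the controls, with overlap.

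Strong peaks were nonetheless rare among the members. A peak of that strength lay in 64 and 32 of the 382 windows in del/del and in 10 and 11 in del/fl, and in 85 windows in any library. Both del/del libraries and neither del/fl library had one in 10 windows, against 0.651% of all windows tested and 6.78% of marked X windows with genes. The reverse held in 0 members, against 0.408% and 0.238%, and all 4 libraries had one in 4 members. One of the 4 was X 94900001 to 95000000, near Spin4, with 41.8% and 41.9% in del/del versus 16.8% and 18.7% in the controls. Another was next to it at X 94800001, with 66.1% and 29.3% against 6.47% and 5.73%. These windows were singled out after their values were seen.

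Peaks in the windows were longer in del/del and about as many. Their number was 5981 and 5356 in del/del versus 5316 and 5615 in the controls, with overlap. Their mean length was 3342 and 4332 bp in del/del versus 2034 and 2264 bp in the controls, a 1.79-fold difference between means of 3837 bp ± 701 and 2149 bp ± 163 (SD, n = 2). Long peaks, over 20 kb, were 146 and 216 in del/del versus 20 and 32 in the controls, and the longest reached 98622 and 109620 bp against 42302 and 64343 bp. The mean fold enrichment over the control, weighted by length and taken from the deposited lists, was 3.82 and 3.67 in del/del versus 3.54 and 3.42 in the controls. Of 370 windows with a peak in all 4 libraries, the weighted fold enrichment was higher in both del/del libraries in 270 and lower in both in 7. Among all 5847 windows with a peak in every library it was higher in 20.6% and lower in 24.9%, and among the 831 such marked X windows with genes in 86.8% and 1.68%.

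Most of the control cover was retained. Of the 8.04 Mb covered in both control libraries, 94.1% was also covered in each del/del replicate, whereas 0.625% was covered in neither replicate. A further 4.68 Mb lay under peaks of both del/del replicates but of neither control. It fell into 7256 stretches with a median length of 498 bp, of which 73.4% touched a del/fl peak. Of these bases, 72.3% lay within 1 kb of a del/fl peak and 95.6% within 5 kb. These shares describe only those 4.68 Mb and not the whole difference in cover. Control peaks of either library already filled 15.6 of the 38.2 Mb, so closeness to one is partly set by their density.

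The windows were next set beside the 841 marked X windows with genes, which had passed the same threshold. Windows with genes were more covered in every library, at 74.3% and 80.2% in del/del versus 51.0% and 57.2% in the controls. Their difference between genotypes was 23.1 points, 2.67 less than in windows without genes (exact two-sided permutation test over libraries, p = 0.33, the smallest that 2 against 2 allow). It was 1.202 points without del/del replicate 2, 4.14 without del/del replicate 1 and 0.68 between the replicate 1 libraries alone. The log2 ratio of gene-free to gene-containing cover was -0.51 and -0.39 in del/del libraries and -0.85 and -0.77 in controls (exact two-sided permutation p = 0.33). With peaks of a −log10 q of at least 5 only, the difference in points changed sign to -3.12. Such peaks filled a mean of 1.73% and 1.19% of the windows without genes in del/del versus 0.121% and 0.107% in the controls.

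The 2 kinds of window start from unlike levels, so they were also compared at like control cover. Windows were binned on del/fl replicate 1 and each del/del library was compared with del/fl replicate 2, and then with the control libraries exchanged. In bins of 20 to 30% on replicate 1, windows without genes differed by 28.8 and 40.3 points (26 windows) and windows with genes by 30.1 and 40.5 points (58 windows). In bins of 50 to 60% the values were 17.4 and 22.0 points (40 windows) and 18.2 and 23.8 points (115 windows). Over the 9 bins the difference between the kinds ran from -1.26 to 1.85 points, and from -3.78 to 2.65 points with the libraries exchanged. Windows without genes had the larger value in 3 of 9 bins and in 2 of 9. The highest bin held only 5 gene-free windows on replicate 1 and 11 on replicate 2, and the bin below it 18 on replicate 1.

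**Figure D3:**
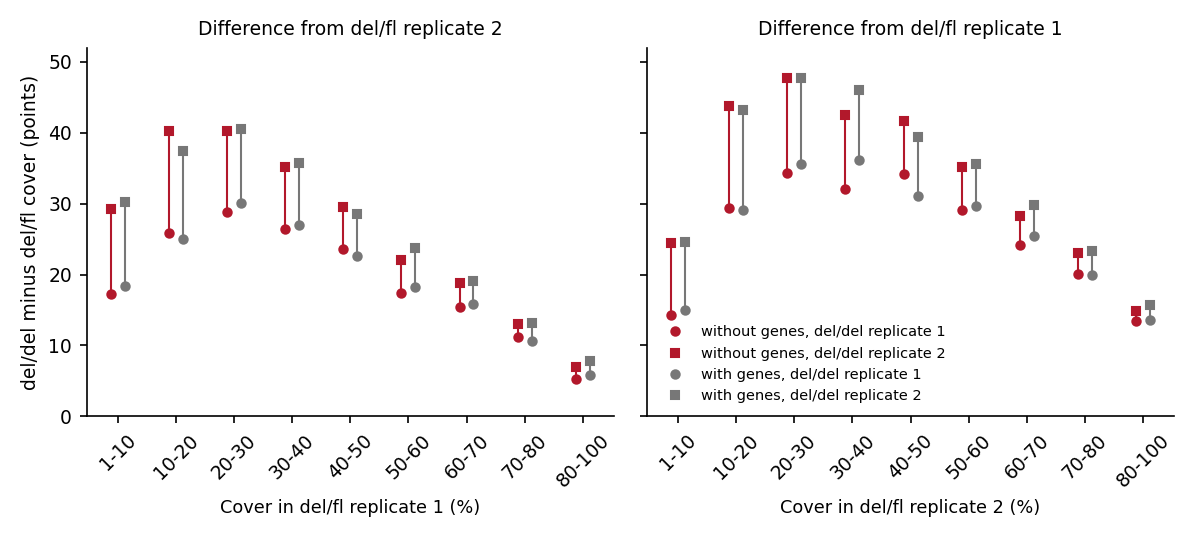
Difference in cover between each del/del library and the del/fl library not used for binning (y axis, percentage points) by cover in the other del/fl library (x axis, percent), for marked X windows without genes (red) and with genes (grey). Circles and squares are del/del replicates 1 and 2, and lines join them. In bins of 20 to 30% on replicate 1 the red points stand at 28.8 and 40.3 and the grey points at 30.1 and 40.5.

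In the plot of differences at matched control cover, binned on replicate 1, gene-free windows averaged 33.1 points at 10 to 20% cover, 34.5 at 20 to 30% and 6.10 above 80%. Within windows that do hold genes, the DNA between genes could be separated from the gene bodies. Gene bodies there (46.4 Mb) were 77.6% and 83.3% covered in del/del versus 55.1% and 60.8% in the controls. The DNA between them (37.7 Mb) was 70.3% and 76.3% covered in del/del versus 46.1% and 52.6% in the controls. Between-gene minus gene-body cover was -7.30 and -7.01 points in del/del libraries and -8.995 and -8.20 points in controls (exact two-sided permutation p = 0.33). Intergenic DNA close to genes was thus more covered in every library than the gene-free windows.

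Control cover was lower the farther a window lay from a gene. The 121 windows with a gene under 50 kb away had 38.6% and 43.8% mean cover in del/fl, and the 63 windows with none within 400 kb had 15.1% and 19.98%. In del/del the same groups had 60.3% and 67.2%, and 41.2% and 53.1%. The difference between genotypes was 22.6 points in the nearest group, 27.1, 25.9 and 26.9 in the groups between, and 29.6 in the farthest. The ratio was 1.55 in the nearest group and 2.69 in the farthest. Without the longest run, the farthest group kept 41 windows with 18.1% and 22.2% in del/fl and 41.5% and 52.2% in del/del, a difference of 26.7 points. Across the 382 windows the Spearman correlation of distance with mean del/fl cover was -0.33 and with the difference 0.23, and neighbouring windows share deserts and peaks.

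**Figure D4:**
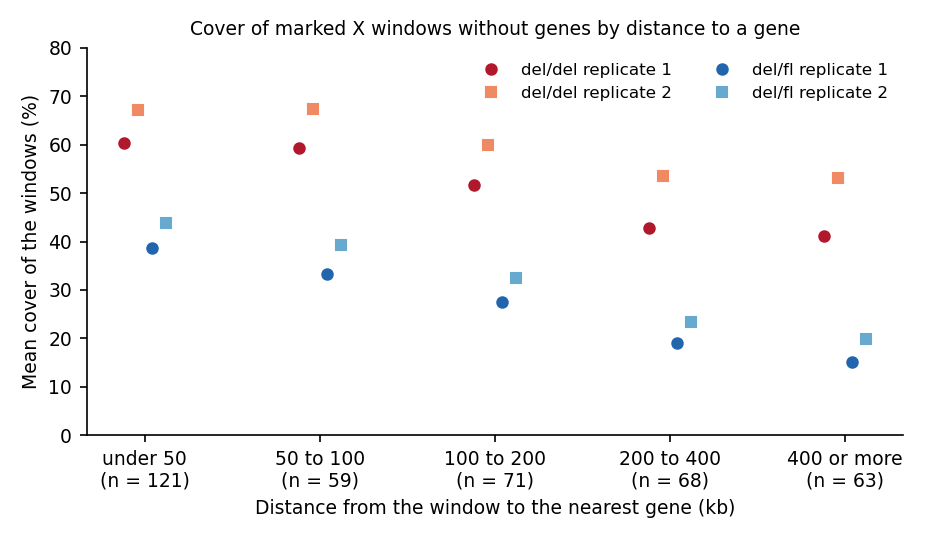
Mean cover of marked X windows without genes (y axis, percent) by distance to the nearest protein-coding or lncRNA gene (x axis, kb, with the number of windows), with 1 point per library. In all 5 distance groups both del/del points lie above both del/fl points, and del/fl means go from 38.6% and 43.8% in the nearest group to 15.1% and 19.98% in the farthest.

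Members often stood side by side. They formed 136 runs, of which 78 were single windows and 9 held at least 10 windows, 126 windows in all. In these 9 runs mean cover was 50.5% and 62.5% in del/del versus 21.2% and 26.6% in the controls. The genotypes were separated in all 126 windows. Both del/del libraries were also higher in 86.7% of all X windows tested and in 96.1% of marked X windows with genes. Separation is therefore not read as a trait of the runs. Single windows had 53.4% and 59.8% in del/del versus 34.3% and 39.6% in the controls. The run between Diaph2 and Pcdh19, at X 130500001 to 133500000, held 30 windows with means of 40.2% and 53.8% in del/del versus 9.48% and 16.0% in the controls. Its differences ran from 14.7 to 44.2 points, and every one of its windows was higher in both del/del libraries.

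**Figure D5:**
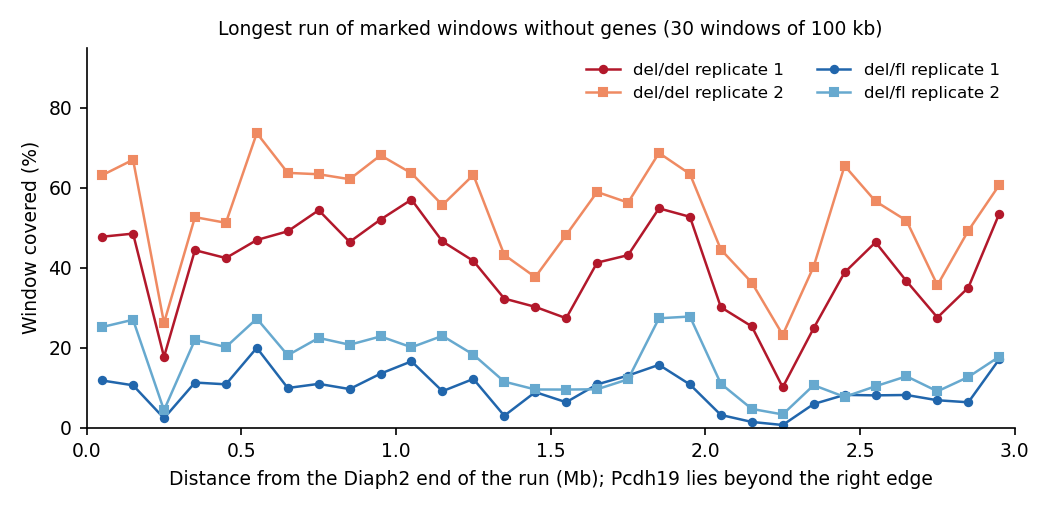
Cover of each 100-kb window (y axis, percent) along the longest run of marked X windows without genes, by distance from its Diaph2 end (x axis, Mb), with 1 line per library. The del/del lines run from 10.1% to 57.0% and from 23.2% to 73.7%, above the del/fl lines, which run from 0.703% to 19.996% and from 3.34% to 27.8%.

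The plot of the longest run shows the genotypes apart in every window, in the direction seen in 86.7% of X windows tested. The run at X 62600001 to 64100000, 15 windows between Tslrn1 and Gm6760, had the largest mean difference of the 9, 38.3 points, with 46.2% and 60.7% in del/del versus 14.0% and 16.3% in the controls. The 15 windows at X 39900001 to 41400000 reached to 819 bp from Gria3, an AMPA-type glutamate receptor gene, and had 42.1% and 56.1% against 13.6% and 17.9%. More densely marked runs lay between Amot, of the Hippo pathway, and Htr2c, a serotonin receptor gene (75.9% and 83.6% against 45.6% and 50.4%). Similar values were found between the synaptic scaffold gene Cnksr2 and the kinase gene Rps6ka3 (78.7% and 84.6% against 45.2% and 54.0%).

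The members were unevenly placed along the chromosome. Of gene-free windows, 97.2% were members at 40 to 60 Mb, 90.1% at 60 to 80 Mb and 94.1% at 140 to 160 Mb, but 28.7% at 0 to 20 Mb, 29.7% at 20 to 40 Mb and 32.1% at 120 to 140 Mb. The 22 members at 20 to 40 Mb had the lowest control cover, 6.23% and 10.1%, against 25.8% and 37.0% in del/del. The 25 members beyond 160 Mb had the highest, 48.2% and 54.8%, against 73.4% and 79.7%. The 181 members proximal to Dxz4 differed by 27.1 points and the 201 distal by 24.7.

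Sequences of other kinds were annotated in 179 of the windows, and 203 held no annotated gene of any type. The windows with a pseudogene or small RNA gene had 56.0% and 63.9% cover in del/del versus 31.7% and 37.0% in the controls. The empty windows had 49.1% and 58.6% against 25.5% and 30.3%, and the differences were 25.6 and 26.0 points. Of 230 pseudogenes, 118 and 143 lay fully under a peak in del/del versus 48 and 66 in the controls. Of 14 snRNA genes 9 and 11 did so in del/del versus 4 and 4 in the controls. The single window at X 136300001 to 136400000 held 6 tRNA genes. Of these, 6 and 5 were under peaks in del/del versus 3 and 5 in the controls, so the genotypes overlapped at these genes. The window itself separated them, at 91.4% and 88.8% in del/del versus 48.1% and 60.1% in the controls.

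The nearest gene was protein-coding for 294 members and a lncRNA gene for 88, 163 genes in all, at a median distance of 112208 bp. Few belonged to the gene families examined. Cypt genes, of spermatid proteins, were nearest to 12 windows, with means of 36.0% in del/del versus 6.98% in the controls. Mage genes were nearest to 4 windows (86.2% and 56.3%) and olfactory receptor genes to 4 (79.9% and 65.1%).

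The autosomes offered the same kind of window without the X. The same rule found 470 of 5904 gene-free autosomal windows (7.96%), and their cover was low and overlapped between genotypes, at 3.72% and 5.08% in del/del versus 3.81% and 5.26% in the controls. The means were 4.40% ± 0.965 and 4.54% ± 1.03 (SD, n = 2). Both del/del libraries were higher in 49 of the 470 and lower in 100. Gene-free X windows exceeded gene-free autosomal windows by 48.6 and 56.0 points in del/del and by 24.6 and 28.2 in del/fl, a difference of 25.9 points (exact two-sided permutation test over libraries, p = 0.33). Divided by each library's own autosomal cover, member cover was 39.1 and 34.1 in del/del versus 19.5 and 17.3 in the controls.

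Near the threshold the rule is a line through a continuous range. The members just inside it were X 64500001 to 64600000, with 0.189% and 1.002% in del/fl, X 23400001 with 1.03% in the higher del/fl library, and X 88300001 with 1.04%. Their del/del values were 5.55% and 7.63%, 0.205% and 4.03%, and 2.38% and 6.92%. Just outside were X 14100001 with 0.995% in the higher del/fl library, X 64800001 with 0.978% and X 88900001 with 0.948%, and 2.60% and 1.90%, 4.71% and 9.86%, and 2.19% and 4.78% in del/del. Below the threshold were 299 gene-free windows, of which 139 had no peak in any library and 36 reached 1% in both del/del libraries. The highest mean del/del cover among them was 18.1%.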

How the data were processed

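H3K27me3 libraries of 2 del/del and 2 del/fl samples were used, and their 4 whole-cell extracts served only as peak-calling controls. The submitters' processing notes name bcl2fastq, Bowtie 0.12.9 and the build mm10. Each library was called by MACS2 2.1.0.20140616 against its own extract in broad mode at a q-value threshold of 0.05, keeping 1 tag per position, drawing the larger library down to the smaller and using local background over 1000 and 10000 bp, per the file headers. The highest q-value in the lists was 0.0983. Pileup is a deposited signal, the height of piled fragments, fold enrichment is a deposited ratio over local background, and p-values and q-values are deposited as −log10 values. Depth is given as tags, and no interval was computed from it, since cover is not a count.

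Percent cover of 100-kb windows was computed with Python 3.11.15, numpy 2.4.6 and pandas 2.3.3, and figures with matplotlib 3.10.9. Genes were 34324 protein-coding and lncRNA genes of RefSeq GRCm38.p6, the mm10 build, counted as overlapping from 1 bp. Windows with a peak in any library were fitted with limma 3.58.1 in R 4.3.3 (variance trend, robust, Benjamini-Hochberg over all windows) and the code was tested on simulated data. Cover at marker genes was taken within 2.5 kb of both ends. The named windows are the 8 largest and 4 smallest differences, the 4 highest in del/fl cover, 3 on either side of the threshold, the longest runs with their flanking genes, and annotated small RNA genes. The members, lists and rules were chosen with earlier results of these data known. Whether replicates are separate embryos is not in the labels, and p-values therefore cover only the variation among these libraries. Per the labels' protocols, part of each line was transduced and the rest kept as control, so a del/del and a del/fl library can come from 1 line, and which do is not stated.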

Additional observations from a re-analysis of the deposited data

How the results depend on the processing

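The difference of 25.8 points between genotypes stayed between 21.4 and 30.2 points when each library was left out, when other minimum covers, gene definitions, window sizes and window starts were used, with lists of equal length, and when the choosing and the comparing control library were exchanged. After division by autosomal cover it was 0.99 in log2 terms. With peaks of a −log10 q of at least 5 it was 1.34 points. Mean cover by such peaks was 1.73% and 1.19% in del/del versus 0.121% and 0.107% in the controls. Only 85 of the 382 windows held such a peak in any library. The genotypes were separated in 17 windows, a count with no share over all windows beside it, and the length ratio was 4.04. In that setting limma called 4 of the 85 members tested higher, against 1.87% of all 2033 windows tested. At this low cover the difference between windows without and with genes reversed to -3.12 points. That last difference, 2.67 points, was 1.202 to 4.14 when 1 library was left out and 0.68 to 5.51 over all other settings, and no test of 2 against 2 libraries can pass. Windows of 50 kb gave 1021 members, 961 of them separated, and windows of 200 kb gave 132, all 132 separated. Requiring no annotated gene of any type gave 203, of which 198 were separated. The shares over all X windows in those settings were not computed. In the main setting 86.7% of X windows tested were separated, so nothing is read from these counts. Leaving out 1 library gave a length ratio of 1.55 to 2.02.

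The limma count of 334 was the least stable. It was 0 without the variance trend, 0 with each window's own variance (200 members with an unadjusted p under 0.05), 0 with all 26321 windows tested (0 unadjusted), 0 to 59 when each library was left out, and 4 with the stricter peaks, and it was 311 to 356 under the remaining settings. In those remaining settings limma called 6.7% to 16.1% of all windows tested higher. The cause of the unlike counts was not tested. The replicate block gave 356, and within replicate numbers 1 and 2 the difference was 23.9 and 27.7 points. Deviations of same-numbered libraries correlated at 0.44 over all windows tested and at 0.49 over the autosomal ones. The values were 0.10 over X windows tested and -0.03 over the 382 members. The labels do not state whether same-numbered libraries come from 1 line, so a pairing was neither assumed nor excluded. With 2 libraries a genotype, differences under the spread between them were not detectable.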
